A study of Bos indicus with 11 samples.

Results

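The 9 genes examined here were listed as genes that build or mark the glands and the lining epithelium of the endometrium. They are the transcription factors FOXA2, SOX17, PAX8, KLF5, MSX1, MSX2 and EMX2, the secreted ligand IHH and the receptor LIFR, so that 7 of the 9 are transcription factors. They were taken by symbol from the deposited table of 24616 genes, in which each of the 9 symbols occurs in 1 row, and no measured value was used to choose them. A place on the list does not show that a gene marks epithelium in these biopsies. Over 10 cows EMX2 had r = -0.699 with the epithelial marker EPCAM, and LIFR had r = 0.283 and rho = -0.030. The other members had r from 0.480 (MSX2) to 0.865 (KLF5).

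Endometrial biopsies of 11 healthy multiparous Nelore (Bos indicus) cows had been sequenced as messenger RNA. Each cow had been synchronized, inseminated at estrus and biopsied on day 6 after artificial insemination (AI), in the uterine horn opposite the corpus luteum. Pregnancy was diagnosed on day 30, and the groups were formed afterwards, with 6 pregnant cows (P) and 5 non-pregnant cows (NP). The 2 groups therefore share breed, synchronization, AI and the horn sampled, and differ in an outcome that was read later. Each cow gave 1 library.

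In the uterus, epithelium and glands meet the embryo first. FOXA2 and SOX17 are needed for glands to form or work in mice, PAX8 marks the epithelium that derives from the Müllerian duct, and KLF5, MSX1 and MSX2 act in the lining epithelium around implantation in mice. IHH is a ligand that epithelium secretes under progesterone and that acts on the stroma below through the receptor PTCH1, and LIFR, with its partner IL6ST, receives the cytokine LIF. EMX2 is a homeobox factor of the developing reproductive tract. EPCAM, an adhesion molecule of epithelial cells, served here as the measure of epithelium in a biopsy.

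Reads on genes ranged from 9290949 to 13569085 per cow. Values are normalized counts, that is, reads per gene divided by a size factor of the cow, and fold changes are NP over P on the scale of log2(normalized count + 1). EPCAM was at 269 in cow P617 and between 2110 (cow P1541) and 4719 in the other 10 cows. The summed count of 7 smooth muscle markers was 424700 in P617 and 306820 in P1541, against 24992 to 175261 in the other 9 cows. The sum of 15 epithelial markers was 7510 in P617, between 17267 and 42749 in the other P cows, and between 19995 and 27569 in NP cows. The stroma markers summed to 125132 to 371271 in P cows and 259957 to 355849 in NP cows, the endothelial markers to 5147 to 15534 and 9353 to 17140, and the immune markers to 455 to 1034 and 791 to 1719. The markers of B cells (MS4A1, CD79B) and of red cells (SLC4A1, ALAS2) were at or near 0 in every cow. P617 and P1541 thus held the least epithelium and the most smooth muscle by these markers, and group differences below are given with and without them.

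FOXA2 (ENSBTAG00000012407), the forkhead factor of the glands, had a lowest, median and highest value of 26.0, 306 and 479.6 normalized counts in P cows. The 5 NP cows had 161, 167, 240.4, 285 and 329. Without P617 and P1541 the other 4 P cows stood at 281 to 479.6, above 3 of the 5 NP cows, so that the groups overlapped under either choice of cows.

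SOX17 (ENSBTAG00000005748), an SRY-box factor of glandular epithelium, had 108, 2155 and 3067 as lowest, median and highest in P cows. In NP cows it was even, at 1676, 1768, 1916, 2057 and 2100. P617 lay far under every other cow and P1541, at 902, lay under every NP cow.

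PAX8 (ENSBTAG00000019354), the paired-box factor, ranged from 14.7 to 245 in P cows with a median of 229.6, and read 140.0, 153, 159, 242 and 256 in the NP cows. Its other 4 P cows were close together, at 236.6 ± 8.86 (SD, n = 4), inside the range of the NP cows.

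KLF5 (ENSBTAG00000002129), a zinc finger factor of epithelium, ranged from 172 to 2668 in P cows with a median of 1698. NP cows had 1302, 1582, 1627, 1745 and 1764. P617 and P1541 (1104) were again the 2 lowest cows of all.

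MSX1 (ENSBTAG00000010875), a homeobox factor, had 202, 12812 and 14139 as lowest, median and highest in P cows. Its NP cows had 8133, 8493, 8790, 9809 and 9850. Apart from P617 and P1541 (7396) every P cow, from 11875 upwards, lay above every NP cow.

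MSX2 (ENSBTAG00000013873), its relative, was low and varied most among the 9 genes, with 10.2, 27.9 and 146 as lowest, median and highest in P cows and 46.7, 60.1 and 65.9 in 3 NP cows with 102 in the other 2. Its coefficient of variation over the 10 cows other than P617 was 61.4%, against 24.4% to 41.3% for the other 8 genes. Its order across cows was not that of MSX1. Cow P1753 had 21.1, the lowest MSX2 apart from P617, and 13750 for MSX1, among the highest.

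EMX2 (ENSBTAG00000003027) ran the other way. Its lowest, median and highest values in P cows were 755, 925 and 4138, and the NP cows had 756, 842, 966, 1143 and 1249.9. P617 and P1541 (2076), the 2 lowest cows for FOXA2, SOX17, PAX8, KLF5 and MSX1, were here the 2 highest, so that EMX2, though listed among epithelial factors, was not ordered like the epithelial markers.

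IHH (ENSBTAG00000008452), the epithelial hedgehog ligand, was at 9.04 in P617, which is 8 reads, and had a median of 4591 and a highest value of 6387 in P cows. NP cows had 2519, 3151, 3586, 4187 and 5507. With P617 set aside, P and NP cows overlapped.

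LIFR (ENSBTAG00000010423), the LIF receptor, had 103, 240.4 and 264 as lowest, median and highest in P cows, and 272, 274, 330.2, 446 and 499 in NP cows. No P cow reached the lowest NP cow. The gap was narrow, from 264 to 272, and P617 and P1541 (118) were the 2 lowest cows, well under the other P cows at 231 to 264.

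**Figure D1:**
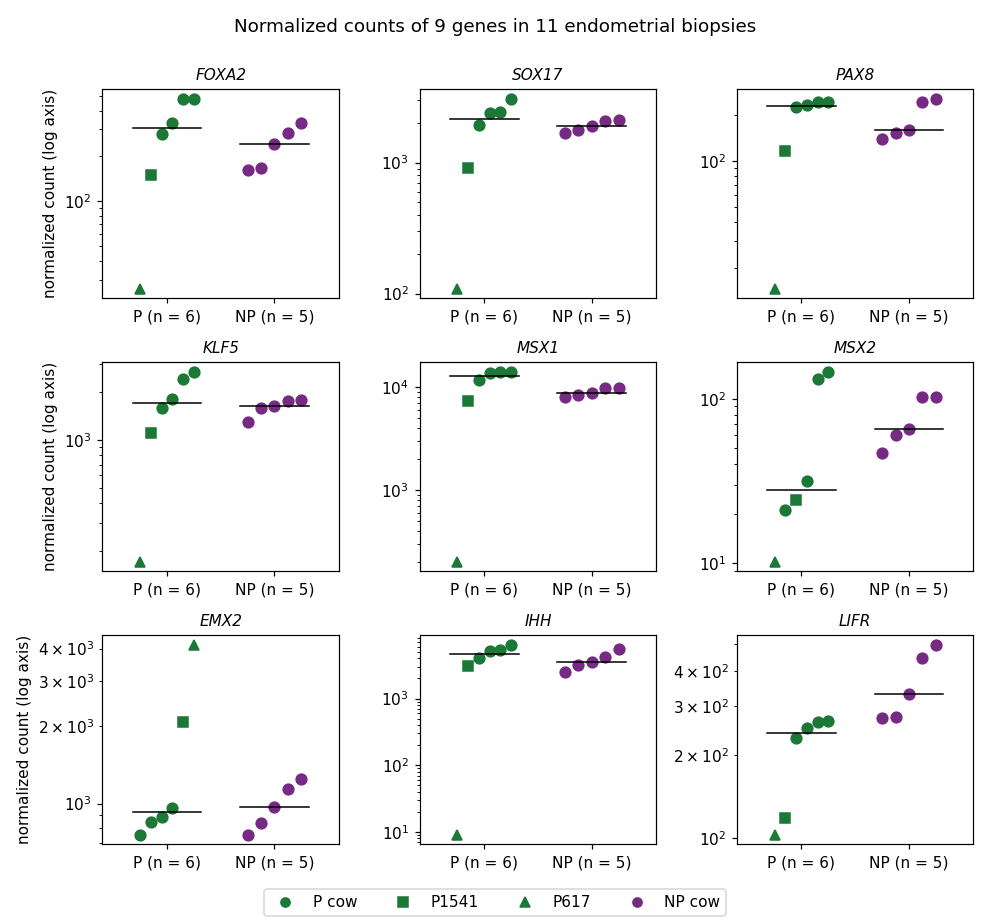
Normalized counts of the 9 genes in each cow, on log axes, for P (green, n = 6) and NP (purple, n = 5), with a black line at the group median. P617 (triangle) is lowest in every panel but EMX2, where it is highest at 4138, and LIFR is the only panel in which all NP cows, from 272 upwards, lie above all P cows.

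Against the median of the other 10 cows, P617 was 459-fold lower in IHH, 48.6-fold lower in MSX1, 18.4-fold lower in SOX17 and 15.6-fold lower in PAX8. For EPCAM itself the difference was 12.7-fold. FOXA2 was 10.9-fold lower, KLF5 9.82-fold, MSX2 6.20-fold and LIFR 2.61-fold, and EMX2 was 4.47-fold higher. By these folds IHH, MSX1, SOX17 and PAX8 were reduced more than EPCAM in this biopsy, and FOXA2, KLF5, MSX2 and LIFR less. EMX2 was more abundant where epithelium was scarce. Per unit of EPCAM, P617 lay well outside the range of the other 10 cows in IHH, MSX1, EMX2 and LIFR. It lay at the edge of that range in SOX17, KLF5 and MSX2, and inside it in FOXA2 and PAX8. For 100 EPCAM counts it had 3.36 of IHH against 86.5 to 186 in the other cows, 75.2 of MSX1 against 236 to 400 and, just outside, 40.3 of SOX17 against 42.8 to 72.5. It was above the others with 1539 of EMX2 against 17.9 to 98.4 and 38.2 of LIFR against 4.89 to 17.1. In KLF5 it was only just above them, at 63.9 against at most 61.8, as in MSX2, at 3.78 against at most 3.74 and on 9 reads. Differences as small as those in SOX17, KLF5 and MSX2 are not resolved from counting error. Nor are the differences of PAX8 (13 reads) and FOXA2 (23 reads) from the fold of EPCAM. In tissue pieces such as these, fewer cells of a type and less RNA per cell cannot be told apart, and these values rest on 1 cow.

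The first question was whether the 9 genes differed between cows that were later pregnant and cows that were not. Over all 11 cows, 0 of the 9 reached an adjusted p-value under 0.1 with limma, and so did 0 of the 15081 genes tested (0% called). By other tools on the recovered reads, edgeR called 0 genes and DESeq2 called 201, none of them among the 9. At an unadjusted p-value under 0.05 limma had 1182 genes, edgeR 1168 and DESeq2 1470. LIFR was the 1 gene of the 9 at an unadjusted p under 0.05, against 7.84% of all genes. The median log2 fold change of the 9 genes was 0.58 and that of all genes 0.0018, with 8 of the 9 higher in NP cows and EMX2 higher in P cows.

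The sign of that median depended on the cows included. Without P617 and P1541, a choice made after their values had been seen, the median of the 9 genes was -0.36, with 6 of 9 higher in P cows, against -0.022 over all genes. At an unadjusted p under 0.05 were then 6 of 9, against 11.1% of all genes, and 0 of 9 passed the adjusted threshold, which 17 genes (0.113%) did. The 6 were MSX1, FOXA2, SOX17, KLF5 and IHH, higher in P cows, and LIFR, higher in NP cows. The epithelial markers moved with them. Their mean log2 value in these 9 cows was 10.17 ± 0.41 (SD, n = 4) in P and 9.75 ± 0.21 (SD, n = 5) in NP (exact permutation test over 126 splits, two-sided, p = 0.00794, which is the least this number of cows can give), with 4 of 15 markers at an unadjusted p under 0.05, all higher in P. All 9 stroma markers tested were higher in NP cows at an unadjusted p under 0.05. Fits with EPCAM or with markers of epithelium or smooth muscle as a term are given with the results they bear on.

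MSX1 had the smallest p-value of the 9 genes once both cows were left out. Over 11 cows it stood at a log2 fold change of 0.57 with a standard error of 0.968 (limma, adjusted p = 0.905), and without both cows at -0.58 (limma, adjusted p = 0.139). In the 9 cows the mean was 13423 ± 1045 (SD, n = 4) in P and 9015 ± 779 (SD, n = 5) in NP, with no overlap between the groups. Of all genes tested, 1.17% had their P cows above their NP cows in this way. The exact permutation test gave p = 0.00794 in the 9 cows, the smallest possible, and p = 0.987 over all 11 cows. P617 and P1541 were the lowest cows for MSX1, so leaving them out itself raises its P mean, and the smaller p-value decides nothing. With EPCAM as a term in these 9 cows the log2 fold change of MSX1 was -0.49 (adjusted p = 0.842 in limma).

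FOXA2 stood at a log2 fold change of 0.12 with a standard error of 0.655 in all cows (limma, adjusted p = 0.972) and at -0.75 without both cows (limma, adjusted p = 0.314). In those 9 cows it had 393 ± 102 (SD, n = 4) in P and 236.5 ± 73.5 (SD, n = 5) in NP. The exact permutation test gave p = 0.0476 there and p = 0.929 over all 11 cows. P617 and P1541 were the 2 lowest cows for FOXA2 too, so leaving them out itself raises its P mean. SOX17 had a log2 fold change of 0.63 and then -0.35, KLF5 of 0.37 and then -0.38, PAX8 of 0.46 and then -0.36, and IHH of 1.13 and then -0.49. Their adjusted p-values in limma without both cows lay between 0.368 and 0.570. For these 5 genes and MSX1, the sign therefore depended on P617, and for FOXA2 it also turned without NP2810, to -0.016. MSX2 kept its sign, at 0.88 and 0.25, and EMX2 turned from -0.41 to 0.18. None of these differences exceeded the spread among cows by the adjusted test.

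LIFR was higher in NP cows by 0.88 on the log2 scale, with a standard error of 0.298 (limma, unadjusted p = 0.0123, adjusted p = 0.459). Its mean was 364 ± 103 (SD, n = 5) in NP and 205 ± 74.2 (SD, n = 6) in P (two-sided exact permutation test over 462 splits of the cows, p = 0.0108). Groups without overlap and with NP higher were found in 0.855% of all genes. The log2 fold change was 0.70 without P617 and 0.49 without both cows, still without overlap, as in 2.49% of all genes in the latter set. Leaving out each cow in turn gave 0.70 to 0.98. DESeq2 gave 0.83 (adjusted p = 0.230) and edgeR 0.83 (adjusted p = 0.536). With P617 counted as NP the log2 fold change was 0.41 (adjusted p = 0.936 in limma), and the groups would then overlap. LIFR did not pass the adjusted threshold in any of the alternatives run, whose adjusted p-values ranged from 0.229 to 0.936 for this comparison and from 0.138 to 0.885 with EPCAM or the epithelial markers as a term.

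Markers of other cell types were also compared between the groups. The mean log2 value of the smooth muscle markers was 13.62 ± 1.19 (SD, n = 6) in P and 12.31 ± 1.20 (SD, n = 5) in NP (exact permutation test, p = 0.106). At an unadjusted p under 0.05, 9 of 10 endothelial and 5 of 8 immune markers were higher in NP cows, against 7.84% of all genes in either direction. Without P617 and P1541 these were 7 of 10 and 2 of 8, against 11.1% of all genes. With the smooth muscle score as a term, an alternative added after the values had been seen, LIFR was higher in NP cows by 0.38 on the log2 scale with a standard error of 0.204 (limma, unadjusted p = 0.0927, adjusted p = 0.873). The part of endothelium and immune cells in the difference was not tested.

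**Figure D2:**
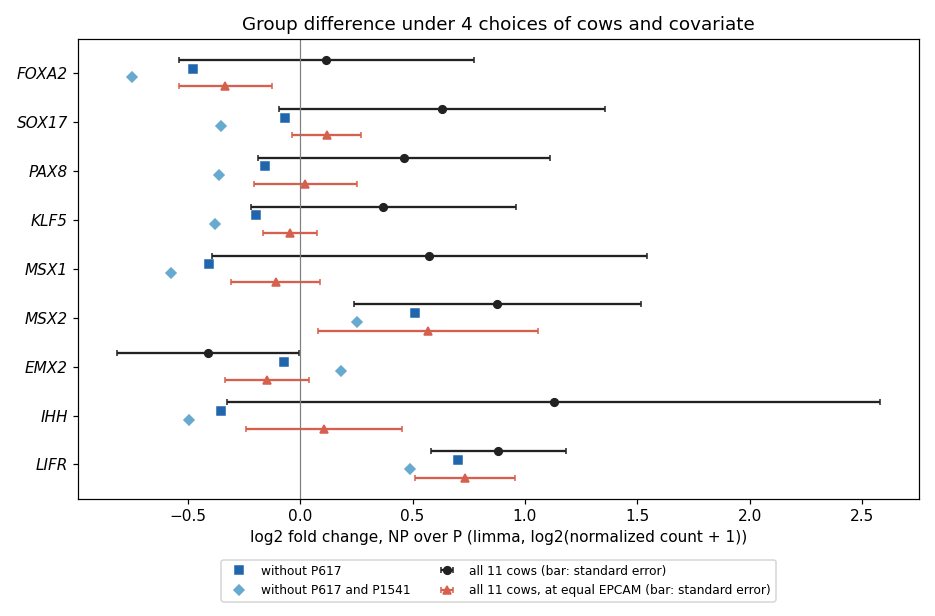
Log2 fold change, NP over P, of each gene in limma over all 11 cows (black, bar for the standard error), without P617 (dark blue), without P617 and P1541 (light blue) and over 11 cows at equal EPCAM (red, bar for the standard error). Of the 9 genes only LIFR and MSX2 stay to the right of 0 under all 4 choices, LIFR between 0.49 and 0.88.

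The second question was how far the genes followed EPCAM from cow to cow. P617 stood apart in EPCAM by 71.9% of the whole log2 range, so the relation was examined over the other 10 cows. In these, 3 of the 9 genes rose with EPCAM at an adjusted p under 0.1, as did 0.577% of all genes, and 0 of 9 fell, as did 0.451% of all genes. The 3 were the gland factors FOXA2 and SOX17 and the epithelial factor KLF5. The median slope was 0.81 log2 units per log2 unit of EPCAM for the 9 genes and 0.0024 for all genes.

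FOXA2 had the steepest slope of the 3, at 1.497 (standard error 0.315, adjusted p = 0.0914 in limma), with r = 0.847 (permutation p = 0.00254) and rho = 0.903 (permutation p = 8.60e-04) over 10 cows. Without P1541 and NP638, the 2 cows farthest from the median EPCAM, r was 0.914 (exact permutation test, p = 0.00268). For KLF5 the slope was 0.93 (standard error 0.193, adjusted p = 0.0914), r was 0.865 (permutation p = 0.00186) and rho 0.685 (permutation p = 0.0348), and r fell to 0.681 (exact p = 0.0865) in the 8 cows. SOX17 had a slope of 1.116 (standard error 0.247, adjusted p = 0.0925), r = 0.830 (permutation p = 0.00304), rho = 0.673 (permutation p = 0.0396) and, in the 8 cows, r = 0.629 (exact p = 0.110). For KLF5 and SOX17 the relation thus rested in part on P1541 and NP638. Each of the 3 calls lay close to the threshold and was lost in 7 of the 10 fits that left out 1 cow, being kept without NP856, NP2541 or NP2810, and EPCAM and each gene share the size factor of a cow.

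MSX1 had r = 0.797 (permutation p = 0.00386) and rho = 0.770 (permutation p = 0.0118), with an adjusted p of 0.159 for its slope in limma and r = 0.6251 in the 8 cows (exact p = 0.105). IHH had r = 0.652 (permutation p = 0.0426), rho = 0.612 (permutation p = 0.0653) and r = 0.507 in the 8 cows (exact p = 0.188). PAX8 reached r = 0.555 (permutation p = 0.107), rho = 0.321 (permutation p = 0.369) and, in the 8 cows, r = -0.195 (exact p = 0.574), so its relation rested on the 2 cows left out. The same held for EMX2, with r = -0.699 (permutation p = 0.0323), rho = -0.479 (permutation p = 0.167) and r = 0.020 in the 8 cows (exact p = 0.922). MSX2 had r = 0.480 (permutation p = 0.164), rho = 0.527 (permutation p = 0.124) and r = 0.203 in the 8 cows (exact p = 0.636). LIFR had r = 0.283 (permutation p = 0.439), rho = -0.030 (permutation p = 0.947) and r = -0.627 in the 8 cows (exact p = 0.0757). The 9 relations are part of the fit over 15080 genes, whose adjusted p-values lay between 0.159 and 0.690 for these 6 genes.

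**Figure D3:**
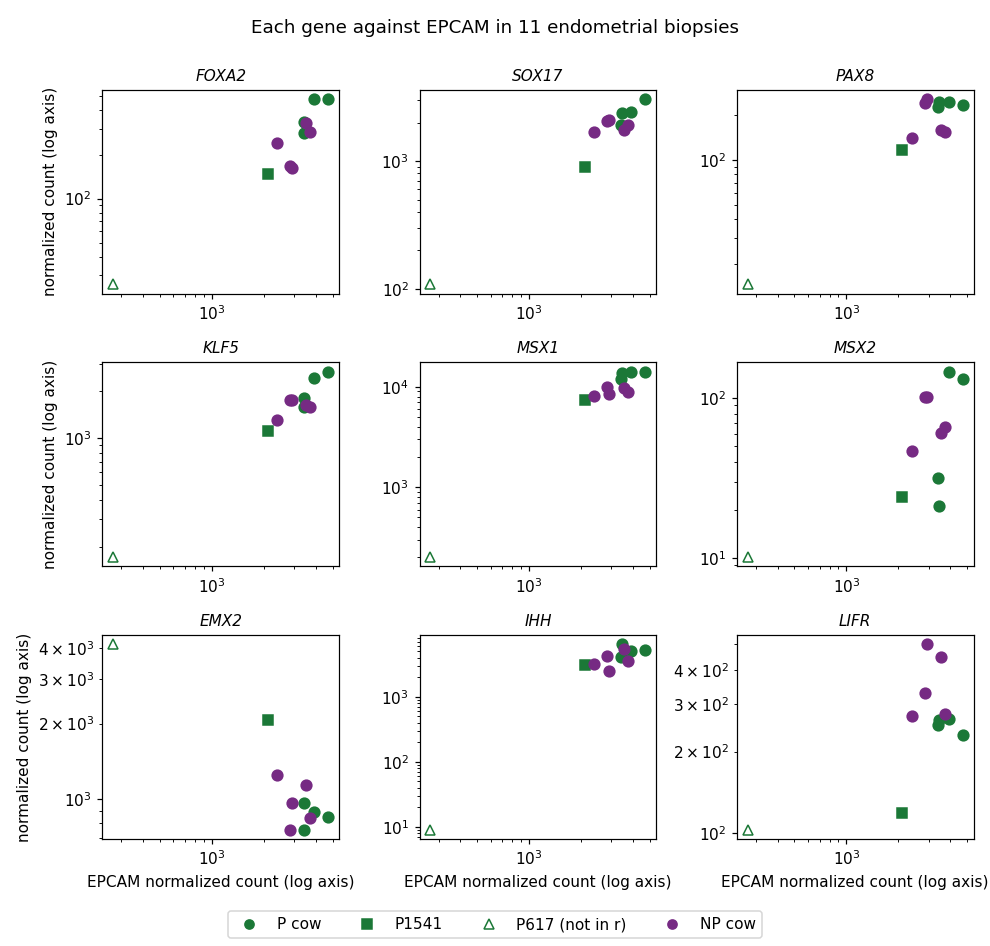
Each gene against EPCAM, both as normalized counts on log axes, with 1 point per cow; P617 (open triangle, EPCAM 269) was left out of the correlations and P1541 is the square. FOXA2 and KLF5 climb with EPCAM over the other 10 cows (r = 0.847 and 0.865), EMX2 is highest in P617 and P1541, and LIFR shows NP cows above P cows at like EPCAM.

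At equal EPCAM, in a fit over all 11 cows with EPCAM as a term, 1 of the 9 genes had an unadjusted p under 0.05, against 10.4% of all genes, and 0 of 9 passed the adjusted threshold, against 0.312%. That gene was LIFR, higher in NP cows by 0.73 on the log2 scale with a standard error of 0.222 (limma, unadjusted p = 0.0066, adjusted p = 0.229). The standard error of IHH dropped from 1.45 to 0.347 with EPCAM in the fit, that of MSX1 from 0.968 to 0.199 and that of KLF5 from 0.588 to 0.122. Their log2 fold changes at equal EPCAM were 0.11, -0.11 and -0.04. FOXA2 stood at -0.33 with a standard error of 0.206, and MSX2, the least precise, at 0.57 with a standard error of 0.489. This fit leans on P617, the cow at the end of the EPCAM range. Without P617 the estimates of PAX8 and IHH changed sign, to -0.05 and -0.23.

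Smooth muscle, the tissue under the endometrium, gave a different order. Over the 10 cows, LIFR fell with the smooth muscle score by 0.41 log2 units per log2 unit (standard error 0.089, adjusted p = 0.0266 in limma), with r = -0.841 (permutation p = 0.00222) and rho = -0.673 (permutation p = 0.0391). It was the 1 of 9 genes called as falling, against 1.54% of all genes, and 0 of 9 were called as rising, against 3.78%. The slope was -0.33 (adjusted p = 0.0872) with the group as a term. Without P1541 it was -0.29 (adjusted p = 0.306), and without P1541 and NP238, the 2 cows farthest from the median score, r was -0.638 (exact permutation test, p = 0.0881). The other 8 genes had r between -0.565 (PAX8) and 0.541 (EMX2), with permutation p-values from 0.0955 upwards. EPCAM and the smooth muscle score were themselves related by r = -0.418 (permutation p = 0.230) and rho = -0.224 (permutation p = 0.536).

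As a description, the genes were also compared with each other over the 10 cows. FOXA2, SOX17, MSX1, PAX8, KLF5 and IHH gave 15 pairs with r from 0.301 to 0.908 and a median of 0.749. SOX17 with KLF5 was the closest pair (0.908), and FOXA2 with PAX8 the loosest (0.301). MSX1 and MSX2, from the same family, had r = 0.229. EMX2 had negative r with each of the other 8, from -0.889 with SOX17 to -0.433 with MSX2. Without P1541 the pairs of EMX2 spread from -0.652 to 0.307 and those among the 6 genes from -0.0091 to 0.935.

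**Figure D4:**
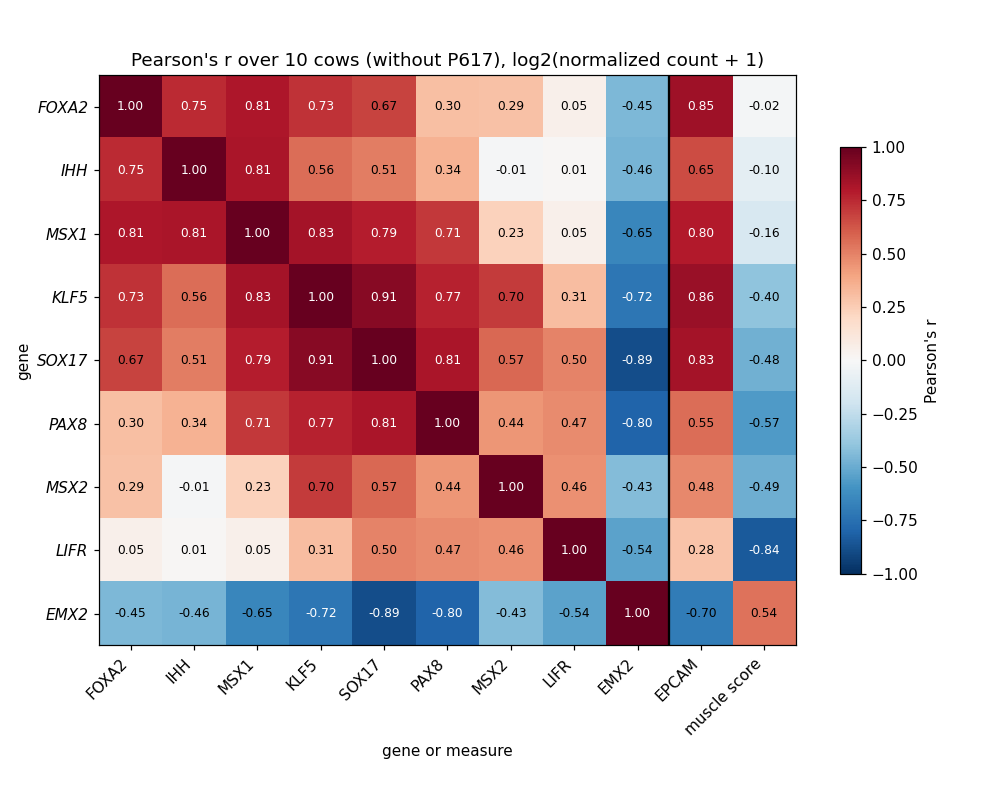
Pearson's r between the 9 genes, and of each with EPCAM and the smooth muscle score (mean log2 value of 7 markers), over the 10 cows other than P617. The red block holds FOXA2, IHH, MSX1, KLF5, SOX17 and PAX8 (r from 0.301 to 0.908), EMX2 is blue throughout the genes, and LIFR has its strongest value, -0.84, with the smooth muscle score.

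Among 10505 genes with a mean of at least 50 normalized counts, those with the highest r to each of the 9 over the same 10 cows were as follows, again as a description. FOXA2 was most like CCND3, a G1 cyclin (r = 0.961), SFMBT1 and GALNT6, an enzyme of mucin-type glycosylation. SOX17 was most like PKP3, a plakophilin of desmosomes (r = 0.983), CSAD and CCDC64B. MSX1 went with CELF6 (r = 0.954), the polarity gene LLGL2 and the peptide transporter SLC15A2, and KLF5 with the tight junction gene TJP3 (r = 0.957), RABEP1 and CASP9. PAX8 went with DCDC2 (r = 0.971), the protease ADAM10 and PIK3C2A, and IHH with C8H9orf152 (r = 0.936), PPP5C and DUSP23. MSX2 was nearest to BRCA1 (r = 0.925), PDE3B and MGC134577. EMX2 was nearest to RRAGC (r = 0.967), CPE, a carboxypeptidase of prohormone processing, and SUPT3H, and LIFR to SDK1 (r = 0.961), RORB and S1PR3.

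Of a list of 29 other transcription factors of epithelium, 23 were tested. KLF4 was the only one of the 23 at an unadjusted p under 0.05 between the groups, higher in NP cows by 0.53 on the log2 scale (adjusted p = 0.634 in limma), and 0 passed the adjusted threshold. The list's median log2 fold change was 0.39 over all cows and -0.28 without P617 and P1541, so its sign turned as that of the 9 genes did. Without both cows GATA6, KLF9 and KLF4 were higher in NP at an unadjusted p under 0.05. With EPCAM, ELF3, an epithelial ETS factor, rose by 1.175 per log2 unit (adjusted p = 0.0914), and the other 22 did not pass. PAX2, a relative of PAX8, was at 6.78 in P617 against 148 to 1779 in the other cows, and SPDEF, a factor of secretory cells, at 45.2 against 1428 to 4101. GATA6 was at 193 there, against 6.13 to 27.5. FOXA1, the relative of FOXA2, had at most 5.71 normalized counts in any cow.

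For IHH the partners of the hedgehog relay were read. Of 15 genes tested, 1 (SUFU, an inhibitor of the GLI factors) had an unadjusted p under 0.05, higher in NP cows by 0.58 on the log2 scale (adjusted p = 0.517 in limma), and the list's median was 0.17. Among ligands, SHH had at most 1.14 and DHH at most 17.2 normalized counts in any cow. In P617 the response genes PTCH1 and GLI1 were low along with IHH. The receptor PTCH1 (ENSBTAG00000009903, the larger of 2 rows with this symbol) was at 37.3 against 483 to 1095 in the other cows. GLI1 stood at 70.0 against 286 to 793. The inhibitor HHIP, also a response gene, was at 4.52 against 6.45 to 50.8. As 1 read is worth 1.13 normalized counts in P617, its place as the lowest cow in HHIP is not resolved from counting error. SMO, the signal transducer of the pathway, was highest in P617, at 2121 against 1077 to 2047. NR2F2, a stromal factor downstream of IHH in mice, was also highest there, at 7331 against 1418 to 5674.

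Among the other 10 cows these genes differed in their order. P1541, which with 3125 counts of IHH stood above only P617 and NP238, had the highest GLI1 (793), but the lowest PTCH1 of the 10 cows (483) and the lowest HHIP but for NP856 (8.71). Cow NP238, lowest of the 10 in IHH at 2519, had 914 for PTCH1, which only P2396 and P1753 exceeded. With EPCAM, 0 of the 16 rows of this list passed, and their median slope was -0.68, with IHH at 0.81, HHIP at 1.20, the 2 rows of PTCH1 at 0.19 and 0.25, and GLI1 at -0.69. Without P617 and P1541, GLI3, BMP2 and NR2F2 were higher in NP cows at an unadjusted p under 0.05.

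**Figure D5:**
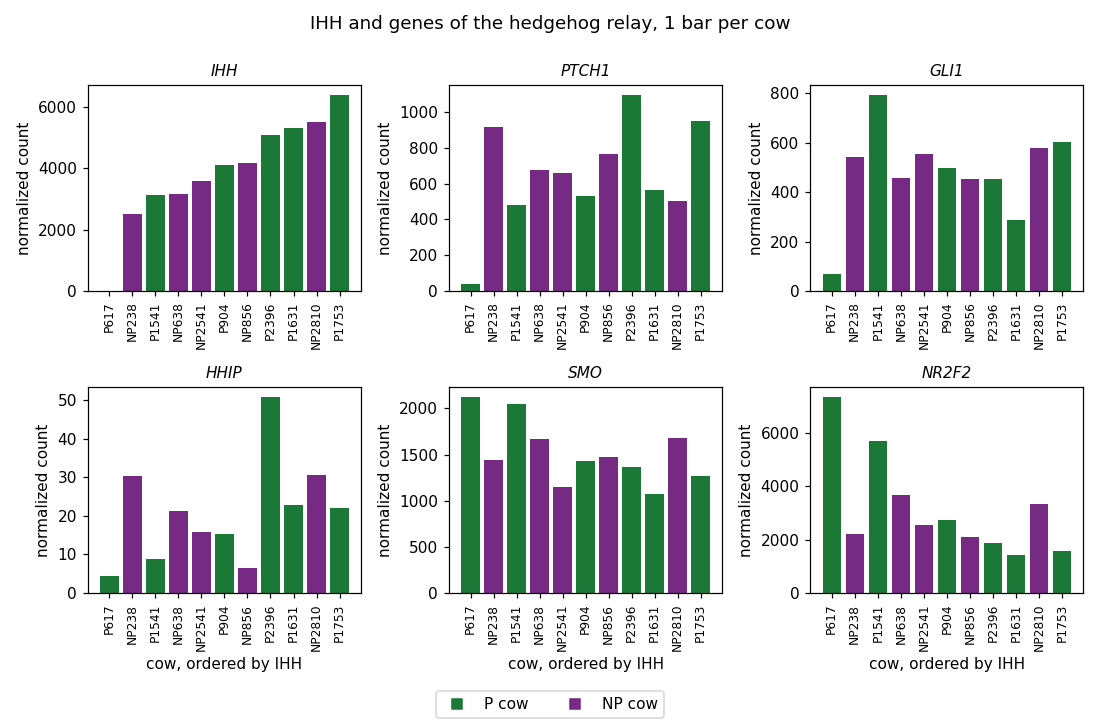
Normalized counts of IHH, PTCH1 (larger of 2 rows), GLI1, HHIP, SMO and NR2F2, with 1 bar per cow in ascending order of IHH, P cows green and NP cows purple. P617, first in each panel, is lowest in IHH, PTCH1, GLI1 and HHIP (in HHIP by a few reads only) and highest in SMO (2121) and NR2F2 (7331).

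For LIFR, a receptor of the interleukin 6 family, the ligand LIF had at most 7.10 normalized counts in any cow, and IL6, IL11 and OSM at most 2.35. CTF1 and CLCF1, which passed the filter on low values, had 11.2 to 44.6 and 27.2 to 70.8. Of 15 genes tested along the path, 1 had an unadjusted p under 0.05, OSMR, the oncostatin M receptor, higher in NP cows by 0.47 on the log2 scale (adjusted p = 0.514 in limma). The list's median was 0.077 over all cows and 0.12 without P617 and P1541. The partner receptor IL6ST had 1251 to 3925 and overlapped between the groups (log2 fold change 0.12), and STAT3, the transcription factor of the path, varied little, from 2152 to 2992. IL6R was lowest in P617 and P1541, with 72.3 and 785 against 890 to 3157 in the other cows. Without P617 its slope on EPCAM was 0.96 (adjusted p = 0.441 in limma). LIFR in P617, at 103, was reduced much less.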

How the data were processed

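Endometrial biopsies of 6 P and 5 NP cows were analysed, each cow being 1 replicate and its group taken from the sample labels. A supplementary file names cow P617 as NP, and it was kept as P. Per the labels and methods, the authors filtered paired reads, mapped them with Bowtie2 2.1.0 to the masked UMD3.1 assembly, counted them with HTSeq 0.5.4p2 and deposited normalized counts from DESeq2 1.12.1, a signal that is never negative. The gene annotation and the use of strand are not given in the sources used here, so reads of overlapping genes cannot be told apart. In all 11 cows, 100% of the values were whole multiples of 1 read within 0.01. A gene with a few reads in a cow, such as IHH in P617, carries counting error as well.

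Values were compared as log2(normalized count + 1) with limma 3.58.1 (R 4.3.3, eBayes with a trend) over 15081 genes, those whose mean over the cows reached 5 (all 9 genes did), with Benjamini-Hochberg adjustment over all genes tested and a threshold of 0.1. Single values were compared by two-sided exact permutation over the cows (scipy 1.17.1), and correlations over 10 cows with 100000 resamples. edgeR 4.0.16 and DESeq2 1.42.0 (no independent filtering) on the recovered reads were alternatives. The tests were also run on simulated counts with the same dispersion (spread between cows) for every gene and no biopsy like P617. That simulation therefore does not show how the tests behave with such a biopsy. The 9 genes, the gene lists and the tests were chosen with earlier results of these data known. The genes named are the 9, EPCAM, the 3 genes most like each of the 9, and genes of the lists at an unadjusted p under 0.05. Other genes of the lists (ligands, receptors, response genes and low markers) were named for their role after their values had been seen. No gene lengths were used, so levels are not compared between genes. The values of some genes of the lists are not reported here.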

Additional observations from a re-analysis of the deposited data

Results flagged for a closer look

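Cow P617 stood apart from the other 5 P cows in 6 of the 20 groups examined (the 9 genes and EPCAM, each in P and in NP, on the log2 scale). A group was singled out when the gap of its lowest or highest cow to the nearest other cow took up an unusually large share of the whole range of the group. The share was 0.889 for IHH, 0.847 for MSX1, 0.731 for PAX8, 0.719 for EPCAM, 0.678 for KLF5 and 0.633 for SOX17. P617 was the lowest cow each time, and no NP group was singled out. Chance gives about 1 such group in 20. The 6 flags come from 1 library and are not independent of each other. That library also had the highest sum of smooth muscle markers, and its part in these values was not tested.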

How the results depend on the processing

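No paired analysis was possible because the replicate numbers are cow identities and the groups share none. In the comparison of P with NP, 0 of the 9 genes passed the adjusted threshold under any alternative, and MSX2 and LIFR kept their sign in all of them. DESeq2 called 201 genes, and the fit without P904 called 171, the fit without P617 and P1541 17 and the fit with EPCAM as a term 47, so that leaving out 1 cow gave 0 to 171. P617 alone lies outside the larger EPCAM cluster, so the planned fit without that cluster is the fit without P617. The log2 fold changes that turned were as follows. With edgeR they were -0.30 for FOXA2, -0.18 for MSX1, -0.0193 for KLF5 and -0.0784 for IHH, and with DESeq2 -0.30, -0.18, -0.0192 and -0.0783. Without P617 and P1541 they were -0.75 for FOXA2, -0.35 for SOX17, -0.58 for MSX1, 0.18 for EMX2, -0.36 for PAX8, -0.38 for KLF5 and -0.49 for IHH. With P617 counted as NP they were -0.99, -0.75, -1.31, 0.27, -0.75, -0.73 and -1.77 in the same order, and with the smooth muscle score as a term -0.61, -0.33, -0.58, 0.16, -0.45, -0.41 and -0.50. With EPCAM as a term FOXA2 was at -0.33, MSX1 at -0.11 and KLF5 at -0.044, and with EPCAM subtracted FOXA2 was at -0.33 and KLF5 at -0.076. Leaving out 1 cow gave -0.48 to 0.36 for FOXA2, -0.068 to 0.89 for SOX17, -0.40 to 0.82 for MSX1, 0.51 to 1.25 for MSX2, -0.56 to -0.07 for EMX2, -0.16 to 0.64 for PAX8, -0.20 to 0.59 for KLF5, -0.35 to 1.51 for IHH and 0.70 to 0.98 for LIFR. P617 gave the lowest value of all but EMX2, where it gave the highest.

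For the slope on EPCAM, 155 genes were called. The count was 358 with the mean of the epithelium markers, 6008 over all 11 cows, 37 with the group as a term, 18 with no filter on low values (more genes tested), 0 without the 2 cows farthest from the median EPCAM and 1 to 443 without 1 cow (443 without NP2810, 63 without NP238, 1 to 3 without P1541, P1631, P1753, P2396, P904 or NP638). The calls of FOXA2, SOX17 and KLF5 were lost with the group as a term (r = 0.843, 0.840 and 0.855), with no filter (r = 0.847, 0.830 and 0.865) and without the 2 farthest cows (r = 0.914, 0.629 and 0.681), and that of FOXA2 with the epithelium markers (r = 0.667). Over all 11 cows the other 6 genes passed as well, with r = 0.983 for MSX1, 0.703 for MSX2, -0.907 for EMX2, 0.955 for PAX8, 0.975 for IHH and 0.662 for LIFR, which rests on P617. Without the 2 farthest cows r turned to 0.020 for EMX2, -0.195 for PAX8 and -0.627 for LIFR, and Spearman's rho was -0.030 for LIFR. Without 1 cow r was 0.793 to 0.902 for FOXA2, 0.726 to 0.858 for SOX17, 0.722 to 0.892 for MSX1, 0.283 to 0.627 for MSX2, -0.814 to -0.418 for EMX2, 0.274 to 0.660 for PAX8, 0.787 to 0.913 for KLF5, 0.601 to 0.714 for IHH and -0.370 to 0.460 for LIFR, which turned without P1541. The slope of LIFR on the smooth muscle score was -0.49 to -0.29 without 1 cow and lost its call only without P1541.

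At equal EPCAM 47 genes were called, 121 with the mean of the epithelium markers in place of EPCAM, 0 without P617 and P1541 and 0 to 445 without 1 cow (445 without P904, 19 without P1541, 10 without P1753). The markers turned MSX1 to 0.25 and KLF5 to 0.16, and leaving out P617 and P1541 turned SOX17 to -0.20, EMX2 to 0.095, PAX8 to -0.40 and IHH to -0.31. Without 1 cow the log2 fold changes were -0.45 to -0.22 for FOXA2, 0.049 to 0.20 for SOX17, -0.29 to 0.0056 for MSX1, 0.27 to 0.90 for MSX2, -0.24 to -0.023 for EMX2, -0.11 to 0.16 for PAX8, -0.10 to 0.023 for KLF5, -0.23 to 0.32 for IHH and 0.60 to 0.84 for LIFR. The causes of these changes were not tested. Median shifts of all genes were 0.016 with TMM and 0.012 with upper-quartile scaling, which turned none of the 9 genes. MSX2, PAX8, FOXA2 and IHH in P617 rest on 9, 13, 23 and 8 reads, and differences of the size of their counting error are not resolved there.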
